A study of Mus musculus with 20 samples.

Results

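Kupffer cells are the resident macrophages of the liver, and their level in whole-liver RNA was followed here through 10 marker genes: Clec4f, Vsig4, Timd4, Marco, Cd5l, Adgre1, Csf1r, Cd68, C1qa and C1qb. The rule that chose them is a list of names and uses no measured value, though it was drawn up with earlier results of these data known; they are 10 of the 55421 genes in the count table; all 10 passed the filter of at least 10 counts in total, as did 22867 genes in all. Kupffer cells sit inside the liver sinusoids, where they clear particles, bacteria, aged red cells and dying cells from the blood. They are seeded before birth, renew themselves in place, and carry a set of surface receptors that newly recruited monocytes acquire only gradually after they settle in the liver. Some of the 10 genes mark Kupffer cells in particular (Clec4f, Vsig4, Timd4, Marco, Cd5l), and the others mark macrophages in general.

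The livers came from wildtype C57BL/6 mice that received an AAV8 vector by retro-orbital injection at 6 months of age. The labels and a figure legend of the study give the mice as female, while the study's text on this time course gives them as male, and the sex-linked counts below bear on this. The vector carried saCAS9 under the Tbg promoter together with a U6-driven single guide RNA. The guide was directed either against HIRA, a chaperone that deposits histone H3.3 outside replication, or against the Rosa26 locus as the control, so the control mice had also received AAV8, Cas9 and a guide. Tbg is a hepatocyte promoter, so the edited cells were meant to be hepatocytes and not the macrophages whose genes are described here. Livers were taken 3 weeks or 6 months after injection, with 5 mice for each guide at each time, and polyadenylated RNA of the whole liver was sequenced. In such bulk samples fewer cells of a type and less RNA per cell cannot be told apart.

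The 20 libraries were of similar depth, with 19916430 to 24079736 counts in genes, and no pair of replicates agreed within sampling noise. Hira itself was at 6.04 to 8.54 CPM (counts scaled to library size with TMM factors, a scaling that guards against a few abundant genes) in the 3-week Rosa26 livers and 4.15 to 5.95 in the 3-week HIRA-guide livers, 2 ranges that did not meet. At 6 months Hira ran from 4.82 to 7.32 CPM in the Rosa26 livers and from 4.96 to 6.51 CPM in the HIRA-guide livers, which overlapped. Hira did not pass the test at either time. It was at -0.48 ± 0.14 on the log2 scale at 3 weeks (edgeR adjusted p = 0.197) and -0.10 ± 0.14 at 6 months (edgeR adjusted p = 0.794). These values are of RNA from whole liver, which includes cells other than hepatocytes. For protein, the study reports from a western blot that HIRA was lost in its CRISPR mice relative to the Rosa26 controls. Hepatocyte transcripts dominated every library: 6 hepatocyte genes together stood at 79670 to 158300 CPM, whereas the 10 macrophage markers together stood at 160.2 to 1803 CPM. None of the 10 markers was at 0 in any library, and the lowest count of a marker was 26, for Marco.

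A few livers stood apart for these genes and are named here because most group values rest on them. Liver 3 of the 6-month Rosa26 group held 1803 CPM of the 10 markers together, against 255.4 to 454 in the other 4 of its group. Liver 4 of the 6-month HIRA-guide group held 1089 CPM, and liver 5 of the same group held 160.2 CPM, the lowest of all 20. Liver 5 had the highest Hira of its group, 6.51 CPM, and also went against its label of female: it had 9 counts of Xist and 2041 counts over 4 Y-linked genes, while the other 19 had 6286 to 8436 counts of Xist and 0 to 13 of the Y-linked genes, as their label has it. Liver 3 of the 3-week Rosa26 group held 703.6 CPM, against 427.7 to 528.3 in the other 4. No source gave a processing batch that could be tied to these livers.

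**Figure D1:**
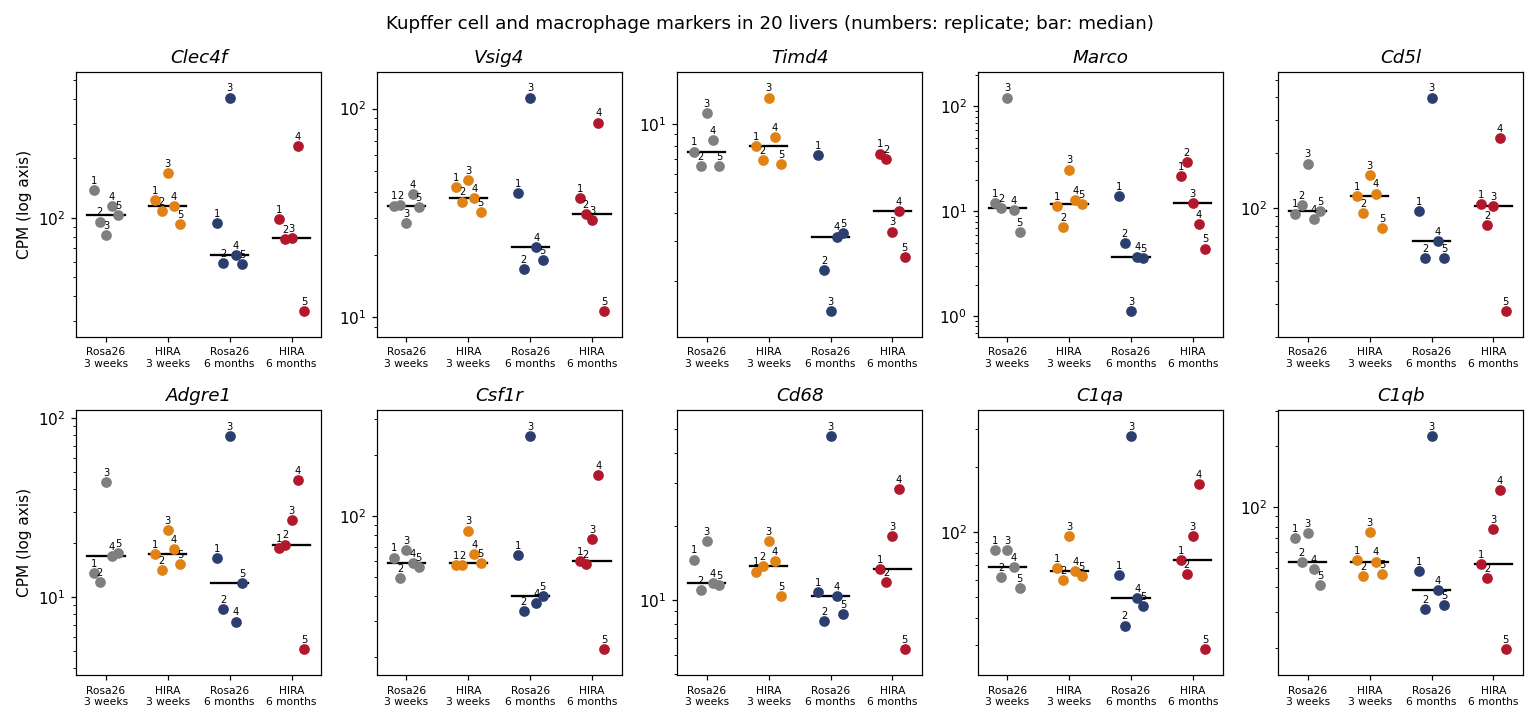
CPM of each of the 10 markers (log axis) in the 20 livers, by guide and time; numbers give the replicate and bars the median of 5. At 6 months liver 3 of the Rosa26 group and liver 4 of the HIRA-guide group lie above the rest for 8 markers, and liver 5 of the HIRA-guide group lies lowest in its group for all 10.

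Levels between genes were compared per kilobase of annotated exon (CPM per kb), as the median over 20 livers. The complement gene C1qa stood highest at 62.4, followed by Cd5l at 47.5, C1qb at 46.7 and Clec4f at 39.4. Vsig4 followed at 23.2, Csf1r at 10.1 and Cd68 at 9.93, and the lowest were Marco at 5.68, Adgre1 at 5.29 and Timd4 at 3.12. The order was firm in places and loose in others when read within each liver. Clec4f was above Vsig4, Vsig4 above Csf1r, and Adgre1 above Timd4 in 20 of 20 livers. Cd5l was above C1qb in 10 of 20 livers, Csf1r above Cd68 in 8 of 20, and Marco above Adgre1 in 12 of 20, so these neighbours have no fixed order here.

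Clec4f (6:83644542-83656187, minus strand, GRCm38) encodes a C-type lectin of Kupffer cells that binds sugars on damaged platelets, and in mice it is found on hardly any other cell. At 3 weeks it was at 138.8, 95.8, 82.0, 114.9 and 103.4 CPM in Rosa26 livers 1 to 5 and at 123.4, 108.3, 168, 115.1 and 92.9 CPM in HIRA-guide livers 1 to 5. At 6 months it was at 94.5, 59.2, 407.2, 64.95 and 58.1 CPM in the Rosa26 livers and at 98.9, 77.7, 79.4, 232.3 and 33.7 CPM in the HIRA-guide livers. The 3-week groups overlapped within a narrow band, while at 6 months 3 livers of each guide were below every 3-week liver of that guide and 1 of each was above every one of them.

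Vsig4 (X:96247203-96293438, minus strand) encodes the complement receptor of the immunoglobulin family by which Kupffer cells catch complement-coated bacteria from flowing blood. Its levels were close together at 3 weeks, at 28.2 to 38.8 CPM in Rosa26 livers and 31.95 to 45.5 CPM in HIRA-guide livers. In the 6-month livers Vsig4 was at 39.4, 17.1, 112.9, 21.8 and 18.8 CPM in the Rosa26 livers and at 37.4, 31.3, 29.3, 85.7 and 10.7 CPM in the HIRA-guide livers. The 6-month values straddled the 3-week band on both sides, and in the Rosa26 group none of the 5 fell inside it.

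Timd4 (11:46810800-46844332, plus strand) encodes TIM-4, a receptor for phosphatidylserine on dying cells that resident Kupffer cells carry and freshly recruited ones lack. At 3 weeks it was at 7.55, 6.49, 11.2, 8.52 and 6.515 CPM in Rosa26 livers 1 to 5 and at 7.97, 6.93, 13.2, 8.80 and 6.63 CPM in HIRA-guide livers 1 to 5. At 6 months it was at 7.26, 2.24, 1.46, 3.15 and 3.26 CPM in the Rosa26 livers and at 7.39, 7.01, 3.32, 4.11 and 2.54 CPM in the HIRA-guide livers. Below every 3-week liver of the same guide were 4 of 5 Rosa26 livers and 3 of 5 HIRA-guide livers at 6 months, and no 6-month liver was above the 3-week range.

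Marco (1:120474538-120505024, minus strand) encodes a scavenger receptor that binds bacteria and particles. At 3 weeks it was at 11.9, 10.7, 121.7, 10.4 and 6.38 CPM in Rosa26 livers 1 to 5, and at 11.2, 7.03, 25.0, 12.7 and 11.6 CPM in HIRA-guide livers 1 to 5. At 6 months it was at 13.9, 4.94, 1.12, 3.71 and 3.62 CPM in the Rosa26 livers and at 21.8, 29.6, 11.9, 7.53 and 4.42 CPM in the HIRA-guide livers. Its largest value, in liver 3 of the 3-week Rosa26 group, was 11.5 times the median of the other 4 livers, and over all 20 livers Marco covered a 109-fold range, against 7.43-fold to 15.7-fold for the other 9 genes.

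Because Timd4 and Marco departed from the other markers, the 250 bases upstream of their RefSeq start sites (GRCm38.p6) are shown beside those of Cd5l and Vsig4, which followed the majority; each is written in the direction of transcription, and capitals mark matches to GAGGAAG, a core of the kind bound by the macrophage factor PU.1, or to TGCTGAC, the core of sites bound by MAF factors, on either strand (CTTCCTC and GTCAGCA as read here).
Timd4, chr11:46810549-46810798, plus strand: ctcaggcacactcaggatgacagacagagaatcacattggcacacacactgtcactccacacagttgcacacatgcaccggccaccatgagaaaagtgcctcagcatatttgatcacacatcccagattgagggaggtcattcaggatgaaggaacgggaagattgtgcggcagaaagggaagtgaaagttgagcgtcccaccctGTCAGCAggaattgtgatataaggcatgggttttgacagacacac
Marco, chr1:120505025-120505274, minus strand: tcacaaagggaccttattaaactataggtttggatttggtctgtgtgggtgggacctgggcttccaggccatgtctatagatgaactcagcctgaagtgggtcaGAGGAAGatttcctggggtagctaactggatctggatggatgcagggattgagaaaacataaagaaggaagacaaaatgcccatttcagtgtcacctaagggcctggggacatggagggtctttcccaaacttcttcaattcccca
Cd5l, chr3:87357631-87357880, plus strand: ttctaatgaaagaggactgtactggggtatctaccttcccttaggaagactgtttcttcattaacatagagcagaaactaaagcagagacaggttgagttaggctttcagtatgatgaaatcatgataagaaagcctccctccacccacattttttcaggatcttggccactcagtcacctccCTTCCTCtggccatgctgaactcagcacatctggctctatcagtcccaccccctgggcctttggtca
Vsig4, chrX:96293439-96293688, minus strand: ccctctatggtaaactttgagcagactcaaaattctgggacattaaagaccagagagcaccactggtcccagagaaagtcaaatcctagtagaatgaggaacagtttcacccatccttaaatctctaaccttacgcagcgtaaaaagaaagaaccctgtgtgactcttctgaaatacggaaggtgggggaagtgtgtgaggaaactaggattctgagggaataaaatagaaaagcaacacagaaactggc
The PU.1 letters were found upstream of 2 of the 7 markers with a sequence in the table (Marco and Cd5l) and in 10.6% of 32851 windows of the same length. The MAF letters were found upstream of 1 of the 7 (Timd4) and in 3.81% of those windows, and Vsig4 held neither.

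Cd5l (3:87357881-87371073, plus strand) encodes AIM, a secreted scavenger protein made by tissue macrophages. It was at 87.5 to 174.5 CPM in the 3-week Rosa26 livers and 77.7 to 150.7 CPM in the 3-week HIRA-guide livers. In the 6-month livers Cd5l was at 96.6, 53.3, 399.1, 65.8 and 53.4 CPM in the Rosa26 livers and at 105, 80.5, 102.2, 239.1 and 27.5 CPM in the HIRA-guide livers. Its level followed the mean of the other 9 markers most closely of the 10, with a Pearson r of 0.941 over the 20 livers.

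Adgre1 (17:57358691-57483527, plus strand) encodes F4/80, the adhesion receptor by which mouse macrophages are usually stained. It was at 13.6, 12.1, 44.1, 16.9 and 17.5 CPM in the 3-week Rosa26 livers and at 14.2 to 23.6 CPM in the 3-week HIRA-guide livers. At 6 months it was at 16.5, 8.58, 79.7, 7.27 and 11.9 CPM in the Rosa26 livers and at 18.8, 19.6, 27.0, 45.0 and 5.08 CPM in the HIRA-guide livers. Liver 3 of the Rosa26 group was the highest at both times, in different mice, and the remaining Rosa26 livers sat between 7.27 and 17.5 CPM.

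Csf1r (18:61100598-61132149, plus strand) encodes the receptor for CSF1 and IL-34, on which macrophages depend for survival. It was at 49.3 to 67.7 CPM in the 3-week Rosa26 livers and at 56.7 to 84.5 CPM in the 3-week HIRA-guide livers. Later, at 6 months, Csf1r was at 63.9, 33.8, 248.8, 37.0 and 40.0 CPM in the Rosa26 livers and at 59.7, 57.9, 76.6, 158.7 and 21.8 CPM in the HIRA-guide livers. Its exons share 873 bases with Hmgxb3 on the opposite strand; the sources used here do not state whether the counting used strand, and Hmgxb3 had 5447 counts over all libraries against 31061 for Csf1r.

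Cd68 (11:69664213-69666153, minus strand) encodes a glycoprotein of macrophage lysosomes. It was at 11.0 to 17.4 CPM in the 3-week Rosa26 livers and 10.4 to 17.4 CPM in the 3-week HIRA-guide livers. Later, at 6 months, Cd68 was at 10.8, 8.25, 46.8, 10.4 and 8.76 CPM in the Rosa26 livers and at 13.5, 11.9, 18.2, 28.4 and 6.30 CPM in the HIRA-guide livers. Of the Rosa26 livers at 6 months 4 were below every 3-week Rosa26 liver and 1 was above, so none fell inside the earlier range.

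C1qa (4:136895917-136898803, minus strand) and C1qb (4:136880129-136886187, minus strand) encode chains of C1q, the recognition part of the classical complement pathway, which in liver is made mainly by macrophages. C1qa was at 62.9, 36.8, 279.9, 49.2 and 45.3 CPM in the 6-month Rosa26 livers and at 74.0, 63.6, 96.1, 167.1 and 28.5 CPM in the 6-month HIRA-guide livers. C1qb was at 48.2, 31.2, 226.1, 38.7 and 32.6 CPM in the 6-month Rosa26 livers and at 52.3, 44.4, 77.6, 121.3 and 19.6 CPM in the 6-month HIRA-guide livers. The groups overlapped for both genes. At 3 weeks C1qa was at 55.1 to 82.6 CPM in the Rosa26 livers and 60.1 to 95.4 CPM in the HIRA-guide livers, and C1qb at 40.95 to 74.2 and 45.2 to 75.0 CPM, with wide overlap.

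The question put to the 3-week livers was whether the markers differed soon after hepatocytes had received the HIRA guide. By edgeR's quasi-likelihood test none of the 10 was called (adjusted p under 0.05 and an absolute log2 fold change above 1), against 0.114% of the 22867 genes tested. None reached an adjusted p under 0.05 alone either, against 0.197% of all genes, and none had an unadjusted p under 0.05, against 8.87%. Groups that did not overlap were found for 0 of 10 markers and for 2.69% of all genes. Setting Marco aside, the fitted log2 fold changes (HIRA guide minus Rosa26) ran from -0.23 for Adgre1 to 0.18 for Clec4f and Vsig4. Marco was at -1.26 ± 0.72 (SE, n = 5 per group; edgeR adjusted p = 0.672), a direction that rested on liver 3 of the Rosa26 group: without it the value was 0.46. The median over the 10 was 0.04, beside -0.01 over all genes tested.

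At 6 months the same comparison asked about a longer time after the HIRA guide. No marker was called, against 0.332% of all genes, none had an adjusted p under 0.05, against 1.31%, and none had groups that did not overlap, against 3.15%. The unadjusted p was under 0.05 for 0 of 10 markers and for 15.5% of all genes. With all livers 8 markers had values slightly below 0, from -0.39 ± 0.48 for Clec4f (n = 5 per group; edgeR adjusted p = 0.764) to -0.10 for Adgre1, while Timd4 was at 0.49 ± 0.35 (edgeR adjusted p = 0.538) and Marco at 1.46 ± 0.75 (edgeR adjusted p = 0.356).

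For 8 of the 10 markers the direction at 6 months turned on single livers, while Timd4 (0.28 to 0.95) and Marco (1.07 to 2.18) stayed above 0 under all 31 alternatives. Without liver 3 of the Rosa26 group all 10 markers were higher in the HIRA-guide livers, by 0.29 (Timd4) to 1.20 (Marco) on the log2 scale, with Adgre1 at 1.06 and C1qa at 0.82; the lowest edgeR adjusted p was 0.188 and none was called. Without liver 4 of the HIRA-guide group the median of the 10 was -0.58, and without liver 5 it was 0.08, again with no call in either case. When liver 3 of the Rosa26 group and liver 5 of the HIRA-guide group were both left out, a choice made after seeing the values and one that removes the highest control and the lowest HIRA-guide liver, 3 markers were called and 5 had an adjusted p under 0.05 by edgeR: Adgre1 at 1.31 (adjusted p = 0.0393), Csf1r at 1.01 (0.0298), C1qa at 1.04 (0.0192), C1qb at 0.97 (0.0339) and Cd68 at 0.91 (0.0244). The same choice raised the calls among all genes to 343, or 1.53% of those tested, and those with an adjusted p under 0.05 to 4.79%. When the highest HIRA-guide liver, liver 4, was left out as well, the values of all 10 were between 0.30 and 1.68, no marker was called, and the lowest edgeR adjusted p was 0.0559, for C1qa.

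**Figure D2:**
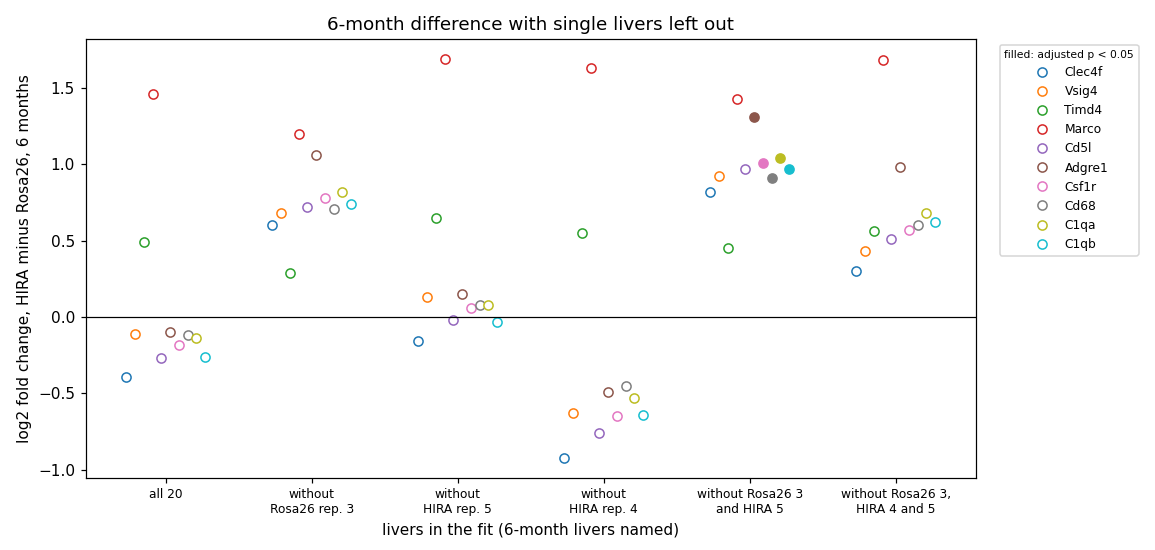
Log2 fold change of each marker between HIRA-guide and Rosa26 livers at 6 months (vertical axis) with all 20 livers and with the named 6-month livers left out (horizontal axis); filled points have an edgeR adjusted p under 0.05. The 8 markers below 0 with all livers lie above 0 once liver 3 of the Rosa26 group is left out, and filled points appear only in the set without Rosa26 liver 3 and HIRA-guide liver 5.

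Between 3 weeks and 6 months the control livers of mice aging with the Rosa26 guide gave no call either: 0 of 10 markers against 0.162% of all genes, 0 of 10 at adjusted p under 0.05 alone against 0.324%, and 0 of 10 with separate groups against 3.5%. The unadjusted p was under 0.05 for 2 of 10 markers, Timd4 and Marco, and for 12.8% of all genes. Timd4 was at -1.21 ± 0.34 on the log2 scale (6 months minus 3 weeks, edgeR adjusted p = 0.121) and Marco at -2.56 ± 0.76 (edgeR adjusted p = 0.138). DESeq2 called both, at -1.20 (adjusted p = 0.0262) and -2.55 (adjusted p = 0.0393), among 157 genes or 0.687% of those tested. Marco rested in part on liver 3 of the 3-week group, being at -0.85 without it, while Timd4 stayed between -1.67 and -1.02 when any 1 liver was left out. The other 8 markers had values from 0.25 to 0.53, and without liver 3 of the 6-month group all 10 were below 0, from -2.30 to -0.42, with a lowest edgeR adjusted p of 0.231.

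In the HIRA-guide livers the same interval gave 0 of 10 markers called against 0.0569% of all genes, 0 of 10 at adjusted p under 0.05 against 0.0656%, and 0 of 10 with separate groups against 1.47%. Timd4, the 1 marker with an unadjusted p under 0.05 (8.95% of all genes had one), was at -0.83 ± 0.34 (edgeR adjusted p = 0.472), and stayed between -1.03 and -0.63 when any 1 liver was left out. Marco was at 0.16, and the other 8 ran from -0.22 to 0.38; without liver 4 of the 6-month group 1 of 10 values was above 0. The comparison over time and the comparison of guides share livers, so their values are given side by side and not set against each other.

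**Figure D3:**
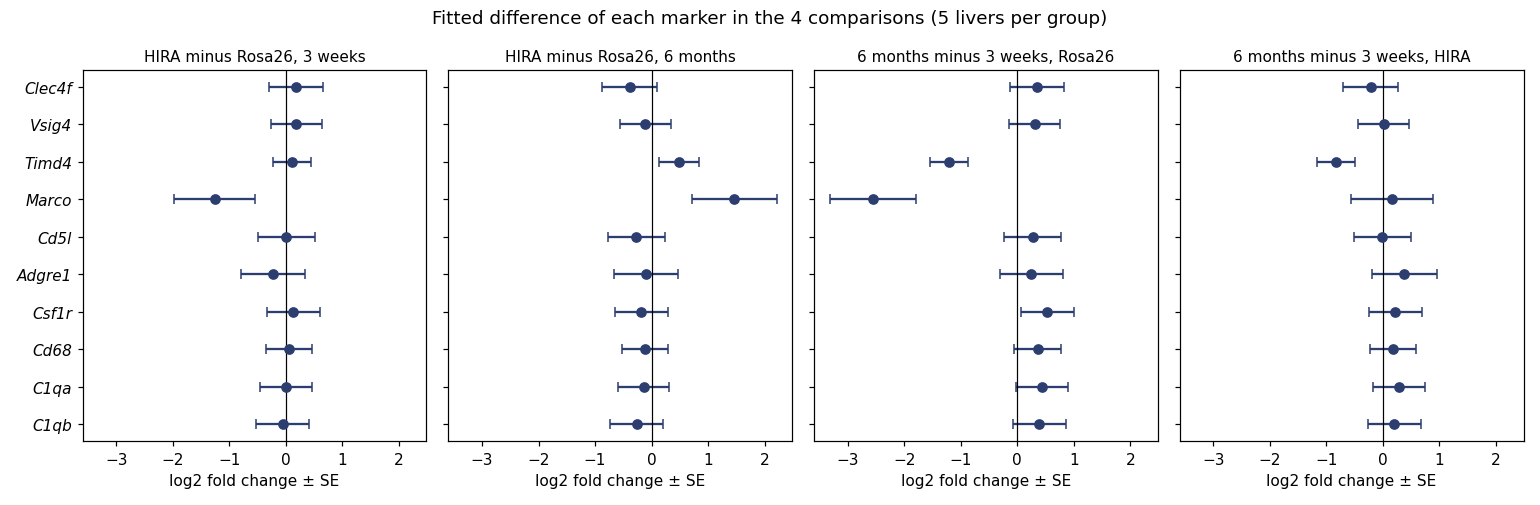
Fitted log2 fold change ± SE of each marker in the 4 comparisons, from edgeR on all 20 livers with 5 per group. Timd4 and Marco lie to the left of 0 in the Rosa26 comparison over time, at -1.21 and -2.56, and the remaining markers lie within 0.53 of 0 in every panel.

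Whether the guide difference itself changed from 3 weeks to 6 months was tested as an interaction. No marker was called, and across all genes 0% were called, with 0% at adjusted p under 0.05 alone. Marco, the 1 marker with an unadjusted p under 0.05 (6.62% of all genes had one), had the largest value of the 10, 2.72 ± 1.04 (edgeR adjusted p = 0.688), and was at 1.01 without liver 3 of the 3-week Rosa26 group. The other 9 ran from -0.57 for Clec4f to 0.38 for Timd4.

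What grew between the times was the spread among livers of 1 group. The SD of log2 CPM had a median over the 10 markers of 0.31 in the 3-week Rosa26 livers and 0.29 in the 3-week HIRA-guide livers, and of 1.19 and 1.01 in the 6-month groups. The 1 marker with a smaller SD at 6 months was Marco in the Rosa26 livers, at 1.67 and then 1.26. Leaving out a liver chosen for its extreme value lowers an SD by construction. Without liver 3 the median SD was 0.21 in the 3-week and 0.41 in the 6-month Rosa26 group, and in the 6-month HIRA-guide group it was 0.80 without liver 4, 0.66 without liver 5 and 0.29 without both. The difference in spread between times was not tested, and no spread over all genes was taken to set beside it. In the Rosa26 livers the SD of the leukocyte gene Ptprc went from 0.41 to 0.99, and that of the hepatocyte gene Alb from 0.25 to 0.22.

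The markers moved together from liver to liver rather than by group. Over the 20 livers the Pearson r of each marker's log2 CPM with the mean of the other 9 was 0.829 to 0.941 for 8 of them, but 0.212 for Timd4 and 0.105 for Marco. Without the 2 livers farthest from the median these became 0.566 and 0.524, and those of the other 8 were 0.73 to 0.933. These are descriptions and not tests, as the markers read in 1 liver share its depth and cell makeup.

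**Figure D4:**
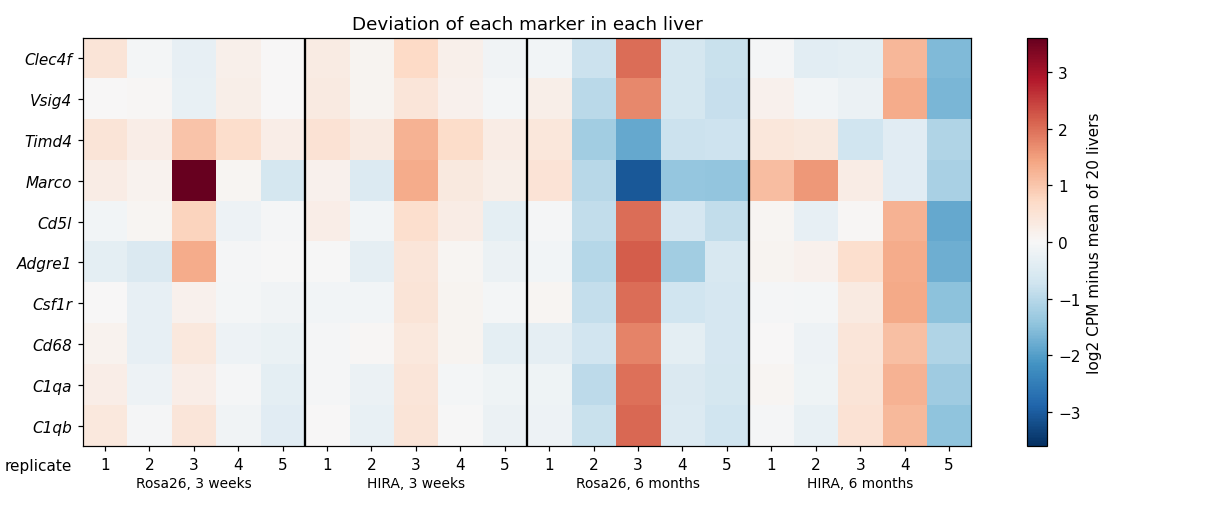
Log2 CPM of each marker in each liver minus its mean over the 20 livers (color), with livers in columns by group and replicate and markers in rows. In liver 3 of the 6-month Rosa26 group 8 markers are high while Timd4 and Marco are low, and in liver 5 of the 6-month HIRA-guide group all 10 are low.

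The liver with the most macrophage RNA had the least Timd4 and Marco. In liver 3 of the 6-month Rosa26 group 8 markers were 4.88 times (Cd68) to 7.79 times (Adgre1) the median of the other 4 livers, with Clec4f at 6.56 times and C1qa at 5.93 times. Timd4 in the same liver was at 0.457 times and Marco at 0.259 times that median, the lowest of the group for both. Put as a share, Timd4 stood at 0.0813% and Marco at 0.0621% of the summed CPM of the other 8 markers there, whereas Timd4 ran from 1.48% to 1.99% over the 10 livers taken at 3 weeks.

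Liver 4 of the 6-month HIRA-guide group was also the highest of its group for 8 markers but not for Timd4 and Marco, which were not its lowest either. The 8 markers were at 2.24 times (Cd68) to 2.96 times (Clec4f) the median of the other 4, Timd4 was at 0.795 times and Marco at 0.447 times, and Timd4 was 0.381% of the other 8. Liver 3 of that group, whose summed level of 521.7 CPM lay within the 3-week range, also had little Timd4, at 0.655% of the other 8. Livers 2, 4 and 5 of the 6-month Rosa26 group, whose summed levels were low, were below the 3-week range of the share as well, at 0.901%, 1.07% and 1.21%. The other 4 livers taken at 6 months were within the 3-week range of the Timd4 share: liver 1 of the Rosa26 group at 1.68%, and livers 1, 2 and 5 of the HIRA-guide group at 1.61%, 1.81% and 1.66%, the last being the liver lowest for all 10 markers.

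**Figure D5:**
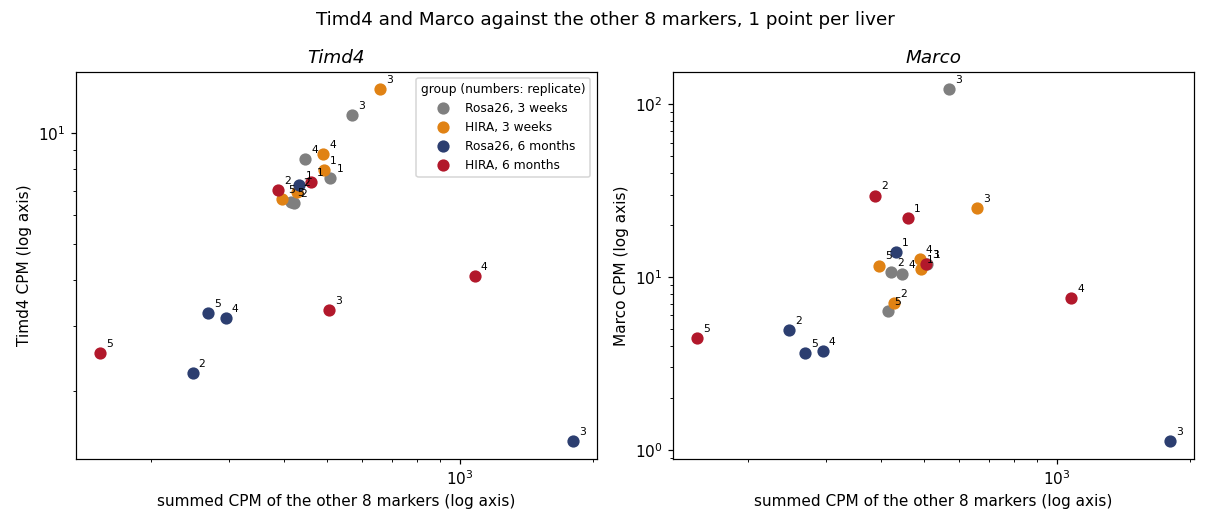
Timd4 (left) and Marco (right) CPM against the summed CPM of the other 8 markers, 1 point per liver, both axes logarithmic; color gives the group and numbers the replicate. The 10 livers at 3 weeks keep Timd4 near 1.48% to 1.99% of the other markers, and liver 3 of the 6-month Rosa26 group lies lowest at 0.0813%.

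Liver 3 of the 3-week Rosa26 group differed in another way. It was the highest of its group for 8 markers, Timd4, Marco and Cd5l among them, but the lowest for Clec4f and Vsig4, at 82.0 and 28.2 CPM. Its Marco stood at 21.3% of the summed CPM of the other 8 markers, against 1.54% to 2.55% in the other 4. Liver 3 of the 3-week HIRA-guide group was the highest for all 10 markers, with 698.3 CPM in sum against 414.1 to 511.1.

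Markers of other cells were read in the same livers, and their part in the results was not tested. Within liver 3 of the 6-month Rosa26 group the 6 neutrophil markers were each the highest of the group, 4 of them with a usable ratio at 3.14 to 6.92 times the other livers, the leukocyte gene Ptprc was at 4.07 times, and 8 lymphocyte markers were at 1.26 to 5.04 times. The 6 sinusoidal endothelial markers there were at 1.01 to 1.62 times and the 6 hepatocyte markers at 0.717 to 0.917 times. In liver 5 of the 6-month HIRA-guide group the same endothelial markers were at 0.377 to 0.701 times those of the other 4 livers. There 6 stellate cell markers were at 0.331 to 0.648 times and the hepatocyte markers at 0.819 to 1.43 times. Ptprc was at 0.290 times, lymphocyte markers at 0.141 to 0.413 times and neutrophil markers with a usable ratio at 0.138 to 0.673 times. Biliary markers were at 0.250 to 0.741 times and MHC class II genes at 0.196 to 0.242 times, beside 0.218 to 0.457 times for the 10 macrophage markers. Liver 4 of that group had its neutrophil markers with a usable ratio at 1.34 to 2.11 times, Ptprc at 1.84 times, lymphocyte markers at 0.653 to 1.87 times, endothelial markers at 0.806 to 1.24 times, hepatocyte markers at 0.887 to 1.248 times and MHC class II genes at 1.70 to 2.40 times the other 4. Likewise in liver 3 of the 3-week Rosa26 group the 6 neutrophil markers were each the highest of the group, 4 of them at 2.25 to 13.8 times the others.

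Beyond the 10 markers, 7 wider lists of macrophage genes, 57 genes in all, were read in the same fit. No gene of any of them had an adjusted p under 0.05 in any comparison by edgeR, and their values are given for the most abundant members. Among 12 genes of Kupffer cell identity and its transcription factors the median log2 fold change at 6 months between guides was -0.02, beside 0.03 for all genes. Without liver 3 of the Rosa26 group it was 0.48, with 10 of the 12 above 0. Slc40a1, the iron exporter ferroportin that is also made by other liver cells, was steady, at 107.3 to 207.3 CPM in the 6-month Rosa26 livers and 102.9 to 177.6 CPM in the 6-month HIRA-guide livers. Id3, a transcription regulator that Kupffer cells need, was at 0.49 ± 0.19 between guides at 3 weeks (edgeR adjusted p = 0.401). Cd163, the hemoglobin scavenger receptor, was chosen after its values were seen: it was at 6.24 to 16.3 CPM in the 3-week Rosa26 livers, and 3.31 to 11.9 CPM in the 6-month ones, which overlapped. In the HIRA-guide livers it was at 12.0 to 20.2 CPM at 3 weeks and 1.12 to 11.4 CPM at 6 months, 2 ranges that did not meet, as was so for 1.47% of all genes. Over time it did not pass the test with either guide (-1.14, edgeR adjusted p = 0.223, and -1.27, edgeR adjusted p = 0.322). Its lowest level of all 20 livers, 1.12 CPM, was in liver 3 of the 6-month HIRA-guide group, 1 of the livers with a low Timd4 share.

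The CSF1 receptor axis was read through 5 genes. Csf1, the growth factor itself, stayed at 11.6 to 24.8 CPM in all 20 livers and was at 0.18 ± 0.15 between guides at 6 months (edgeR adjusted p = 0.623). Tyrobp and Fcer1g, the signaling adaptors of macrophage receptors, followed the markers: Tyrobp reached 58.7 CPM and Fcer1g 51.8 CPM in the 6-month Rosa26 group, whose medians were 10.4 and 8.99. Among 12 genes of phagocytosis and the lysosome all 12 were highest of the group in liver 3 of the 6-month Rosa26 group, and all 12 were lowest of theirs in liver 5 of the 6-month HIRA-guide group. Lyz2, which encodes lysozyme, reached 343.8 CPM in the former group against a median of 59.5.

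Of 8 lipid-associated macrophage genes, 7 had values above 0 between guides at 6 months, with a median of 0.29. That median was -0.68 without liver 3 of the HIRA-guide group and 0.5 without its liver 5. It was 0.65 without liver 3 of the Rosa26 group. Fabp5, a fatty acid binding protein gene and the most abundant of the list, was the 1 below 0, at -0.87 ± 0.57 (edgeR adjusted p = 0.503), and was at -0.77 over time in the Rosa26 livers and -0.83 in the HIRA-guide livers. Gpnmb, a lysosomal glycoprotein of lipid-laden macrophages chosen here after its values were seen, was at 2.18 ± 0.81 (edgeR adjusted p = 0.192), but a single liver, liver 3 of the HIRA-guide group at 31.4 CPM, was at 25.6 times the median of its group's other 4, and without it the value was -0.35. Lpl, which encodes lipoprotein lipase, was at 197.4 CPM in that liver, 13.1 times the others, and reached 107.4 CPM in the 6-month Rosa26 group. Markers of other cells were raised in the same liver: all 6 stellate cell markers were the highest of the group, at 1.30 to 6.31 times the others, lymphocyte markers were at 1.18 to 3.71 times and MHC class II genes at 2.46 to 3.05 times, and their part in these values was not tested. Over time Gpnmb was at 2.06 in the Rosa26 livers (edgeR adjusted p = 0.38) and 4.14 in the HIRA-guide livers (edgeR adjusted p = 0.12), or 1.63 without that liver, while the median of the 8 over time was 1.05 in the Rosa26 livers (0.55 without liver 3 of the 6-month group) and 1.04 in the HIRA-guide livers (0.22 without liver 3 of theirs). Mmp12, a macrophage elastase gene also chosen after its values were seen, was at 2.73 ± 0.86 over time in the Rosa26 livers (edgeR adjusted p = 0.16) and 2.81 ± 0.86 in the HIRA-guide livers (edgeR adjusted p = 0.28), with liver 3 of each 6-month group at 10.25 and 9.39 times the other 4. The tetraspanin gene Cd9 was at -0.60 over time in the Rosa26 livers (edgeR adjusted p = 0.142). None of these passed the test.

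For 8 genes of recruited monocytes the median between guides was -0.48 at 3 weeks and -0.06 at 6 months. The 3-week value rested on liver 3 of the Rosa26 group, the highest of its group for 7 of the 8, and was 0.01 without it. All 8 were highest in liver 3 of the 6-month Rosa26 group, and the 6-month median was 0.58 without that liver and -0.42 without liver 3 of the HIRA-guide group. The 8 inflammatory mediators had a median of -0.92 at 3 weeks, when all 8 were highest in liver 3 of the Rosa26 group, and of 0.02 without it. Their 6-month median was -0.11, and it was 0.94 without liver 3 of the Rosa26 group and -0.63 without liver 3 of the HIRA-guide group. Cxcl10, an interferon-induced chemokine and the most abundant of them, reached 24.1 CPM in the 3-week Rosa26 group against a median of 6.81. The 5 genes of MHC class II antigen presentation had values above 0 in all 4 comparisons, with medians of 0.40 between guides at 3 weeks, 0.19 at 6 months, 0.81 over time in the Rosa26 livers and 0.60 in the HIRA-guide livers, and none had an adjusted p under 0.05. The 6-month median was 0.92 without liver 3 of the Rosa26 group and -0.15 without liver 3 of the HIRA-guide group. Over time the median was 0.06 in the Rosa26 livers without liver 3 of the 6-month group, and 0.28 in the HIRA-guide livers without liver 3 of theirs. Cd74, the invariant chain, reached 499.2 CPM in the 6-month Rosa26 group and 394.7 CPM in the 6-month HIRA-guide group.

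Among 12893 genes with a mean of at least 1 CPM, the 5 whose log2 CPM followed the mean of the 10 markers most closely over the 20 livers were Cfp (Pearson r = 0.958), Adgre4 and Igsf6 (each 0.943), Pirb (0.941) and Lrrc25 (0.938). Cfp encodes properdin, which stabilises the alternative complement pathway, Adgre4 encodes a relative of F4/80, and Pirb encodes an inhibitory receptor of myeloid cells. Spearman's rho was 0.842 to 0.917 for the 5, and r was 0.915 to 0.946 without the 2 livers farthest from the median, liver 3 of the 6-month Rosa26 group and liver 5 of the 6-month HIRA-guide group. The list is a description of likeness over these livers and was given no test.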

How the data were processed

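Polyadenylated RNA of 20 whole livers (5 per guide and time) was read from 2 tables of the whole series. Per the labels, raw read counts per gene were deposited by the authors (aligner STAR; the labels also name HTSeq and Cufflinks, the study's methods name HOMER for counting; genome mm10), along with FPKM values that the authors deposited for the same genes, whose tool is not given in the sources used here. Here edgeR (4.0.16; glmQLFit and glmQLFTest, TMM) was fitted in R (4.3.3) to all 20 libraries with 1 mean per group, as group means share 1 estimate of the spread; genes under 10 counts in total were left out (22867 of 55421 tested), p-values were adjusted by Benjamini-Hochberg over all genes tested, and a gene was called at an adjusted p under 0.05 with an absolute log2 fold change above 1. Log2 CPM used a prior count of 2. All tests were two-sided, and p-values measure the spread between these mice. Alternatives were DESeq2 (1.42.0), other scalings and filters, a replicate block, FPKM with limma (3.58.1; log2 of FPKM plus 1), and leaving out livers. The fits were tested on simulated data. Positions and exon lengths came from GENCODE M21, which held 98.5% of the gene identifiers and all 10 markers; promoters came from RefSeq (GRCm38.p6), with entries for 7 markers. The genes named are the 10 markers, Hira, up to 3 of highest mean CPM per wider list and the 5 of most like profile; any other is said to be chosen after its values were seen, apart from the genes and lists that describe single livers. The markers and lists were chosen with earlier results of these data known.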

Additional observations from a re-analysis of the deposited data

Results flagged for a closer look

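Among 40 sets of 5 livers (10 markers in 4 groups), 8 held a highest liver whose gap to the next, on the log2 CPM scale, was more than 0.71 of the whole range; chance flags about 1 in 20 such sets. The sets are not independent, since most markers follow each other from liver to liver and 7 of the 8 came from 2 livers. In liver 3 of the 6-month Rosa26 group these were Clec4f at 407.2 CPM (next highest 94.5), Cd68 at 46.8 CPM (next 10.8), C1qa at 279.9 CPM (next 62.9) and C1qb at 226.1 CPM (next 48.2). In liver 3 of the 3-week Rosa26 group they were Marco at 121.7 CPM (next 11.9), Cd5l at 174.5 CPM (next 103.9) and Adgre1 at 44.1 CPM (next 17.5). In liver 3 of the 3-week HIRA-guide group C1qa was set apart at 95.4 CPM (next 68.3). No liver was set apart downward by this measure.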

How the results depend on the processing

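Of 1540 values of the 50 marker fold changes under alternatives, 172 differed in sign from the main value, 10 of these where that value was beyond 0.5 in size, and 6 were calls. DESeq2 called 2 markers between times in the Rosa26 livers, beside 0.687% of all genes. Leaving out 1 liver at a time called 0 to 1 there. The call was Timd4 at -1.67 without liver 1 of the 6-month group (edgeR adjusted p = 0.0332), beside 0.137% of all genes in that fit. At 6 months between guides, leaving out liver 3 of the Rosa26 group and liver 5 of the HIRA-guide group, chosen after seeing the data, called 3 markers (Adgre1 1.31, Csf1r 1.01 and C1qa 1.04), all of which were below 0 with all livers. It also brought 5 markers and 19 of the 57 genes of the wider lists to an adjusted p under 0.05. The share of all genes at that threshold rose from 1.31% to 4.79%. Calls among all genes, which also need an absolute log2 fold change above 1, rose from 76 to 343, or from 0.332% to 1.53%. The cause of these changes was not tested.

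Counts of all genes called moved widely: 26 between guides at 3 weeks (3 to 64 over the alternatives), 76 at 6 months (0 to 343), 37 between times in the Rosa26 livers (1 to 157), 13 in the HIRA-guide livers (2 to 74) and 0 for the interaction (0 to 2). The livers share replicate numbers, but no source ties equal numbers to a shared litter or day, and not every such pair deviated together: same-number correlations had a median of 0.08 (-0.309 to 0.335, 14 of 30 over 0.1), against -0.036 (-0.451 to 0.54, 25 of 120 over 0.1) for different numbers. Under the replicate block no marker was called, the lowest edgeR adjusted p being 0.0861 for Timd4 between times in the Rosa26 livers, and all-gene counts were 27, 72, 61, 26 and 0 in the order above; 5 of 20 livers correlated best with 1 of their own number.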
